A study of Mus musculus with 56 samples.

Results

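The G protein signalling genes described here were 4 genes annotated to 1 signalling system, with RNA counted in the liver. They were chosen from 52230 genes because they had stood out by genotype in these livers or were named by the study. They were the receptor Gpr146, the G protein alpha subunits Gna12 and Gnat1, and Rgs16, a regulator of G protein signalling. For Gnat1 only 0.257% of the reads were assigned to the coding transcript. The choice rested on LL against PP without activator for Gpr146, Gna12 and Rgs16, and on PL against PP without activator for Gnat1. Values from those contrasts, and from the mice in them, are therefore given as a description with no test. Tests are given only for mice outside the contrast that chose the gene. Earlier results of these data were known at the choice, so the tests are no independent check of it.

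RNA came from the left lateral liver lobe of 56 male mice of the P446L line, a knock-in on the B6N background. The line carries either of 2 residues at position 446 of GKRP, which is encoded by Gckr and holds glucokinase in the nucleus of hepatocytes: proline on both alleles (PP, labelled Gckr-446P), proline and leucine (PL, Gckr-446P/L) or leucine on both (LL, Gckr-446L). The allele is in the germline, so that every cell of the mouse carries it. All groups received the high-fat high-sugar diet (HFHSD, 45% of energy as fat, with 10% glucose and 5% fructose in the drinking water) for 20 weeks. Mice labelled 3 mg/kg, received in addition GKA, an activator of glucokinase, and the rest were untreated. Without GKA there were 10 PP, 8 PL and 10 LL mice, and with GKA 10 PP, 8 PL and 10 LL mice. PP mouse 7, which the study had removed because its expression stood apart on a heatmap, was left out here too, so that n = 9 for PP without GKA. The sources used here give no litter, harvest time or batch for any mouse.

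A G protein-coupled receptor that has bound its ligand makes a heterotrimeric G protein exchange GDP for GTP on the alpha subunit, which then leaves the beta and gamma subunits, and both parts act on effectors. The signal ends when the alpha subunit hydrolyses its GTP, a step that RGS proteins speed up. In hepatocytes, Gs raises cAMP downstream of glucagon, Gq releases calcium downstream of vasopressin and alpha-1 adrenergic agonists, and G12 and G13 act on the actin cytoskeleton.

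Total reads per mouse were between 5189852 and 8093368. Summed over 10 hepatocyte markers, the normalised read count was between 84884 and 138602 CPM in every mouse (CPM, reads of a gene scaled to the normalised size of the library), against 109 to 661 CPM over 8 Kupffer cell markers, 83.4 to 195 CPM over 7 endothelial markers and at most 0.795 CPM over 5 muscle markers. Over 5 red cell markers it was 284 to 2960 CPM. Over 5 adipose markers it was 879 to 4628 CPM, where Car3 had 5907 to 31832 reads and Adipoq and Lep had 0. The median of Gckr was 175 CPM for PP and 144 CPM for LL (with GKA, 167 CPM and 152 CPM), and its mRNA level does not check the codon change. A gene was called differentially expressed where its adjusted p was under 0.05 and it was higher by 1.3-fold or more, or at 0.7 of the reference or less. By edgeR Gckr was not called between PP and LL (adjusted p 0.238 without GKA and 0.596 with GKA). Whole liver was sequenced, so that fewer cells of a type and less RNA per cell cannot be told apart.

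Per length, Rgs16 was the most abundant of the 4 genes, with a median over the 55 mice of 73.4 CPM per kb of effective length, the mean length from which fragments can start. Gna12 (27.8 CPM per kb) and Gnat1 (28.0 CPM per kb) were level, and Gpr146 was at 13.6 CPM per kb. The value for Gnat1 rests on short non-coding transcripts, described with that gene. Among alpha subunits of the liver, Gnas of the stimulatory Gs protein had 283 CPM per kb and Gnai2 of the inhibitory Gi protein 42.0 CPM per kb. Gna13, the closest relative of Gna12, had 4.08 CPM per kb, so that Gna12 held most of the RNA of the G12 family. Gnat2, the cone counterpart of Gnat1, had at most 8 reads in any mouse.

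The sequences just upstream of the annotated starts of Gpr146, Gna12 and Rgs16 are shown because these 3 genes were those chosen from the same contrast. They come from the GRCm39 genome, cover 250 bases that end at the base before the first base of the main transcript, and run 5′ to 3′ on the strand of the gene. Capitals mark GC boxes (GGGCGG) and CCAAT boxes (CCAAT), each on either strand.
Gpr146-201 (chr5:139366086-139366335, plus strand): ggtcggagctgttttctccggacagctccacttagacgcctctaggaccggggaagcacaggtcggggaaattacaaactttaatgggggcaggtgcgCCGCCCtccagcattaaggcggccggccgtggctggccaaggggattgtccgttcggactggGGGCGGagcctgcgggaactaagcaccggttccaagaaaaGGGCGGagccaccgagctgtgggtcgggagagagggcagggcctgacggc
Gna12-201 (chr5:140816208-140816457, minus strand): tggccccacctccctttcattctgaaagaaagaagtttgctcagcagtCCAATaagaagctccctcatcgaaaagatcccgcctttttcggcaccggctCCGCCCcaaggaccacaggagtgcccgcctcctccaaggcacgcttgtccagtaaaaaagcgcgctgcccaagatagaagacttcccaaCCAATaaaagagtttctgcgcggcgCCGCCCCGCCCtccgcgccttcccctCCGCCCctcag
Rgs16-201 (chr1:153615841-153616090, plus strand): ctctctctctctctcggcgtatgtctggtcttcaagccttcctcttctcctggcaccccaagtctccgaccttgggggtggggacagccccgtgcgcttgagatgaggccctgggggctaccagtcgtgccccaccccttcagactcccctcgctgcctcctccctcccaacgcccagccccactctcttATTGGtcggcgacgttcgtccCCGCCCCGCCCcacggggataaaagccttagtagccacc
The windows were rich in G and C, at 64.4% for Gpr146, 58.8% for Gna12 and 64.8% for Rgs16. The GC box was found 3 times for Gpr146, 4 times for Gna12 and 2 times for Rgs16, some of them overlapping. It was found in 48.5% of the 10705 windows of the same length before all tested coding genes, the 4 genes included. The CCAAT box was found 2 times for Gna12, once for Rgs16 and once in the window of Gnat1, and in 36.1% of windows. The Gnat1 window precedes the coding transcript Gnat1-201, which held only 0.257% of the Gnat1 reads. No window of the 4 genes held an E-box (CACGTG, in 7.88% of windows), a D-box (TTATGTAA, 0.617%), a full cAMP response element (TGACGTCA, 2.03%), a ROR element core (AGGTCA, 11.7%), a TATA box (TATAAA, 7.4%) or a carbohydrate response element (0.056%). The core of the cAMP response element (TGACG, 23.3% of windows, part of the full element) was found once, in the window of Gpr146-201. These matches are letters in a window and were not tested as sites.

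Gpr146 encodes an orphan receptor of the liver whose loss in mice lowers blood cholesterol. It lies on chromosome 5, 139363452 to 139382170, on the same chromosome as Gckr at a distance of 108 Mb. Its lowest, median and highest normalised read counts were 26.6, 36.4 and 59.1 CPM in PP (n = 9), 43.5, 71.6 and 86.3 CPM in PL (n = 8) and 41.5, 64.4 and 84.6 CPM in LL (n = 10). All 10 LL livers and all 8 PL livers were above the PP mean, and 6 of the LL and 5 of the PL livers were above every PP liver, while the groups overlapped. With GKA the values were 26.2, 51.0 and 85.9 CPM in PP (n = 10), 39.7, 56.3 and 74.6 CPM in PL (n = 8) and 34.9, 49.8 and 83.9 CPM in LL (n = 10). With GKA the 3 genotypes overlapped almost fully, and 5 of the 10 LL livers were above the PP mean.

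As a description, the log2 fold change of Gpr146 without GKA was 0.69 (SE 0.15) for LL against PP, 0.73 (SE 0.16) for PL against PP and -0.05 (SE 0.16) for LL against PL. In the mice with GKA, outside the contrast that chose the gene, it was 0.09 for LL against PP (SE 0.18, 95% interval -0.27 to 0.45, edgeR adjusted p 0.924). For PL against PP with GKA it was 0.18 (SE 0.18, interval -0.20 to 0.56, adjusted p 0.865), and for LL against PL -0.09 (SE 0.15, interval -0.41 to 0.23, adjusted p 0.912). No difference by genotype was thus detected in the mice with GKA. Whether the difference by genotype itself changed with GKA was not tested, since the mice without GKA had been used for the choice. GKA in PL gave -0.19 (SE 0.16, interval -0.52 to 0.14, adjusted p 0.999), and the descriptive values were 0.36 (SE 0.18) in PP and -0.23 (SE 0.15) in LL. In order of the medians the groups ran from PP through LL GKA, PP GKA, PL GKA and LL to PL, and each group overlapped the next.

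The differences of Gpr146 by genotype with GKA were small enough to turn with the settings. With a component of 16 clock genes as a covariate they became -0.09 for LL against PP, -0.02 for PL against PP and 0.07 for LL against PL, and an offset for effective length gave -0.0009 for LL against PP. Without LL GKA mouse 53, LL against PP was -0.004. This mouse had the highest Gpr146 (83.9 CPM), Gna12 (115 CPM) and Gnat1 (30.2 CPM) of the LL mice with GKA and, at 1.28, also their highest clock component.

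Reads of Gpr146 were assigned almost wholly to 2 coding transcripts with different start sites, Gpr146-201 and Gpr146-203. Gpr146-201 held 85.5% of the reads over all mice and Gpr146-203 held 14.3%. The split was close to all or nothing in single livers: Gpr146-203 had no reads in 37 of 55 mice, and Gpr146-201 had none in 4. With GKA the share of Gpr146-201 was 70.0 ± 48.3% for PP (SD, 10 mice), 88.7 ± 13.2% for PL (8 mice) and 94.4 ± 9.51% for LL (10 mice). The difference between LL and PP was 24.5 percentage points, smaller than the spread in PP (permutation p 0.191, two-sided, adjusted over 6 tests 0.31). Sums over transcripts, as used for the gene, do not depend on this split. The gene lies within the span of Chlsn on the other strand, which had 2 to 33 reads, and their exons do not overlap.

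**Figure D1:**
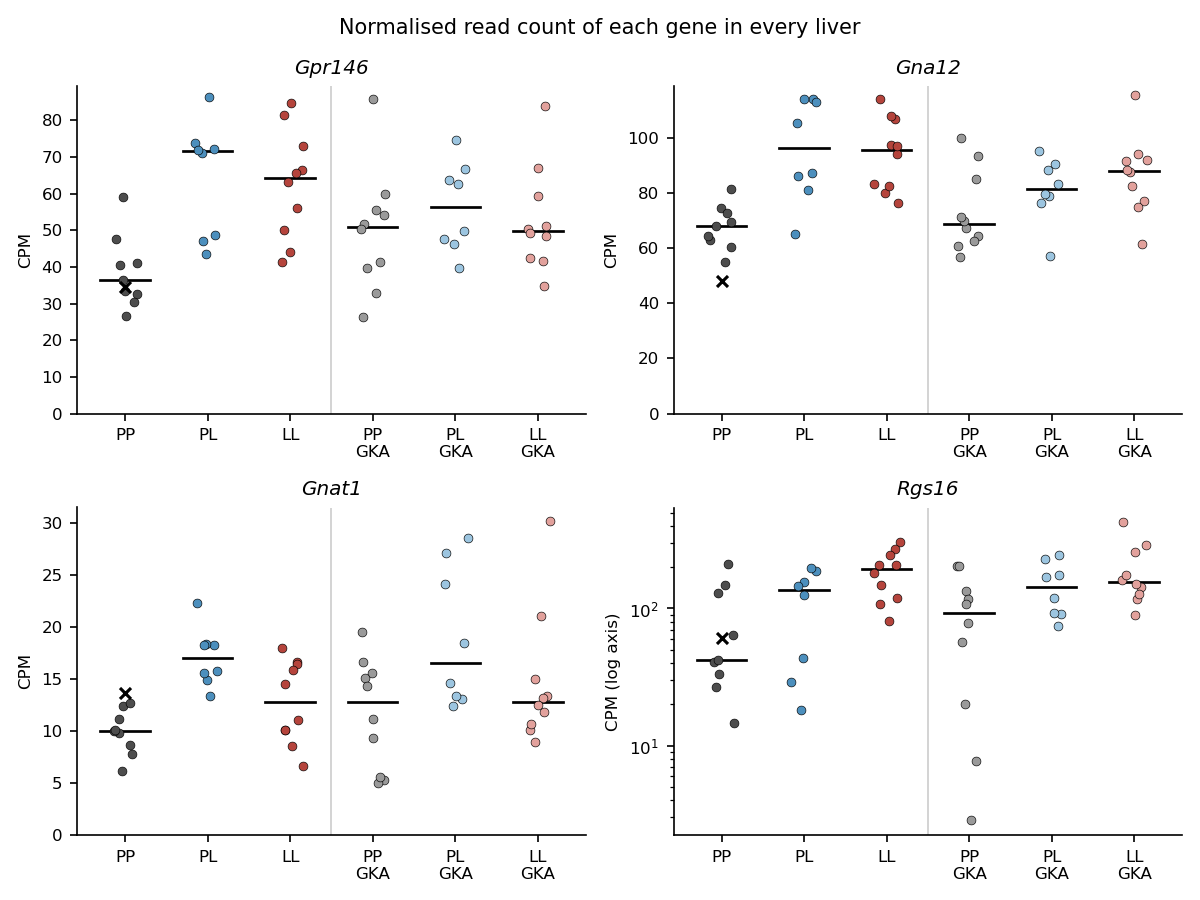
Normalised read count (CPM) of Gpr146, Gna12, Gnat1 and Rgs16 in every liver by group, with 1 point per mouse, the group median as a line, and PP mouse 7 (left out of medians and tests) as a cross. The axis of Rgs16 is logarithmic. The 8 PL livers without GKA sit above the 9 PP livers for Gnat1, and the lowest Rgs16 values, down to 2.85 CPM, belong to PP with GKA.

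Gna12 encodes the alpha subunit of G12, which binds guanine nucleotide exchange factors that act on the actin cytoskeleton. It lies on chromosome 5, 140744158 to 140816336, on the minus strand, 109 Mb from Gckr. Without GKA its lowest, median and highest values were 55.1, 68.1 and 81.6 CPM in PP (n = 9), 65.3, 96.3 and 114 CPM in PL (n = 8) and 76.4, 95.8 and 114 CPM in LL (n = 10). All 10 LL livers were above the PP mean and 8 of them above every PP liver, and 7 of 8 PL livers were above the PP mean. With GKA the values were 56.8, 68.7 and 100.02 CPM in PP (n = 10), 57.3, 81.6 and 95.2 CPM in PL (n = 8) and 61.7, 87.9 and 115 CPM in LL (n = 10). With GKA the medians ran in the order PP, PL, LL, and only 1 LL liver was above every PP liver.

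The descriptive log2 fold changes of Gna12 without GKA were 0.47 (SE 0.09) for LL against PP, 0.50 (SE 0.11) for PL against PP and -0.04 (SE 0.11) for LL against PL. With GKA, LL against PP gave 0.25 (SE 0.11, interval 0.02 to 0.48), with 9 of 10 LL livers above the PP mean. Its edgeR unadjusted p was 0.0361 and its adjusted p 0.443, so that it did not pass the test over all genes. PL against PP with GKA was 0.15 (SE 0.12, interval -0.10 to 0.40, adjusted p 0.813) and LL against PL 0.09 (SE 0.11, interval -0.13 to 0.31, adjusted p 0.87). GKA in PL gave -0.24 (SE 0.12, interval -0.49 to 0.02, adjusted p 0.999), and all 8 PL livers with GKA were below the mean of PL without GKA. Descriptive values for GKA were 0.11 (SE 0.11) in PP and -0.11 (SE 0.10) in LL. In order of the medians the groups ran from PP through PP GKA, PL GKA, LL GKA and LL to PL, and each group overlapped the next.

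Nearly all reads of Gna12 (99.99%) fell on the coding transcript Gna12-201. Its exons overlap those of Amz1 on the other strand, and Amz1 had at most 10 reads against at least 292 for Gna12. Gna13, which acts on the same exchange factors, had group medians between 17.2 CPM and 21.6 CPM. Its log2 fold change was -0.07 (SE 0.11) for LL against PP without GKA and 0.01 (SE 0.10) with GKA (edgeR adjusted p 0.868 and 0.992).

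Rgs16 encodes a GTPase-activating protein for alpha subunits of the Gi and Gq classes, and in liver its RNA is known to vary with feeding and with the time of day. It lies on chromosome 1, 153616091 to 153621228. It was the most variable of the 4 genes: the lowest, median and highest values without GKA were 14.7, 42.0 and 213 CPM in PP (n = 9), 18.1, 136 and 196 CPM in PL (n = 8) and 80.3, 194 and 306 CPM in LL (n = 10). With GKA they were 2.85, 93.2 and 205 CPM in PP (n = 10), 74.6, 144 and 247 CPM in PL (n = 8) and 89.9, 156 and 425 CPM in LL (n = 10). As a description, the lowest LL liver without GKA (80.3 CPM) served as a cut-off, which comes from the contrast that chose this gene. With GKA, 5 of 10 PP, 1 of 8 PL and 0 of 10 LL livers lay below it. No LL liver without GKA can lie below this cut-off, so the groups without GKA are not counted against it. The highest values of PP and PL, by contrast, lay well inside the LL range.

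The descriptive log2 fold changes of Rgs16 without GKA were 1.24 (SE 0.41) for LL against PP, 0.51 (SE 0.53) for PL against PP and 0.72 (SE 0.39) for LL against PL. With GKA, LL against PP gave 1.07 (SE 0.50, interval 0.02 to 2.11), with 9 of 10 LL livers above the PP mean, an edgeR unadjusted p of 0.0455 and an adjusted p of 0.472. PL against PP with GKA was 0.69 (SE 0.54, interval -0.44 to 1.82, adjusted p 0.817) and LL against PL 0.37 (SE 0.29, interval -0.23 to 0.98, adjusted p 0.779). GKA in PL was 0.41 (SE 0.42, interval -0.48 to 1.3, adjusted p 0.999). No call was made in any of these, and the intervals for the comparisons with PP were wide, with a 71.8-fold range among the 10 PP livers with GKA. Descriptive values for GKA were 0.23 (SE 0.60) in PP and 0.06 (SE 0.27) in LL. In order of the medians the groups ran from PP through PP GKA, PL, PL GKA and LL GKA to LL, and each group overlapped the next.

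Rgs16 moved with the clock genes within groups. The clock component, the first principal component of 16 clock genes (57.6% of their variance over 55 mice, scaled to an SD of 1, higher where Dbp is higher), averaged -0.58 for PP, 0.56 for PL and 0.49 for LL mice, and with GKA -0.91 for PP, 0.58 for PL and 0.04 for LL mice. Of the clock genes tested, 7 of 13 had an unadjusted p below 0.05 for LL against PP and 9 of 13 for PL against PP, where 11.8% and 10.1% of all genes did, by edgeR. With GKA it was 4 of 13 and 10 of 14, where 10.4% and 8.19% of all genes did. Across the 55 mice, the deviations of Rgs16 from the group means had a Pearson r of 0.76 with those of the component, and r was between 0.56 and 0.96 within the 6 groups, where both values of a mouse come from the same library. PP GKA mouse 19, with the lowest Rgs16 of all (20 reads), had a component of -2.83. With the component as a covariate, LL against PP with GKA was 0.51 and PL against PP with GKA turned to -0.70, and without GKA PL against PP turned to -1.15. The time of harvest is not given in the sources used here, and its part in the differences by genotype was not tested. All reads of Rgs16 were on 1 annotated coding transcript. Its exons overlap the antisense gene Gm28513, which had at most 12 reads, with 2 of its 19 annotated transcripts present in the files.

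**Figure D2:**
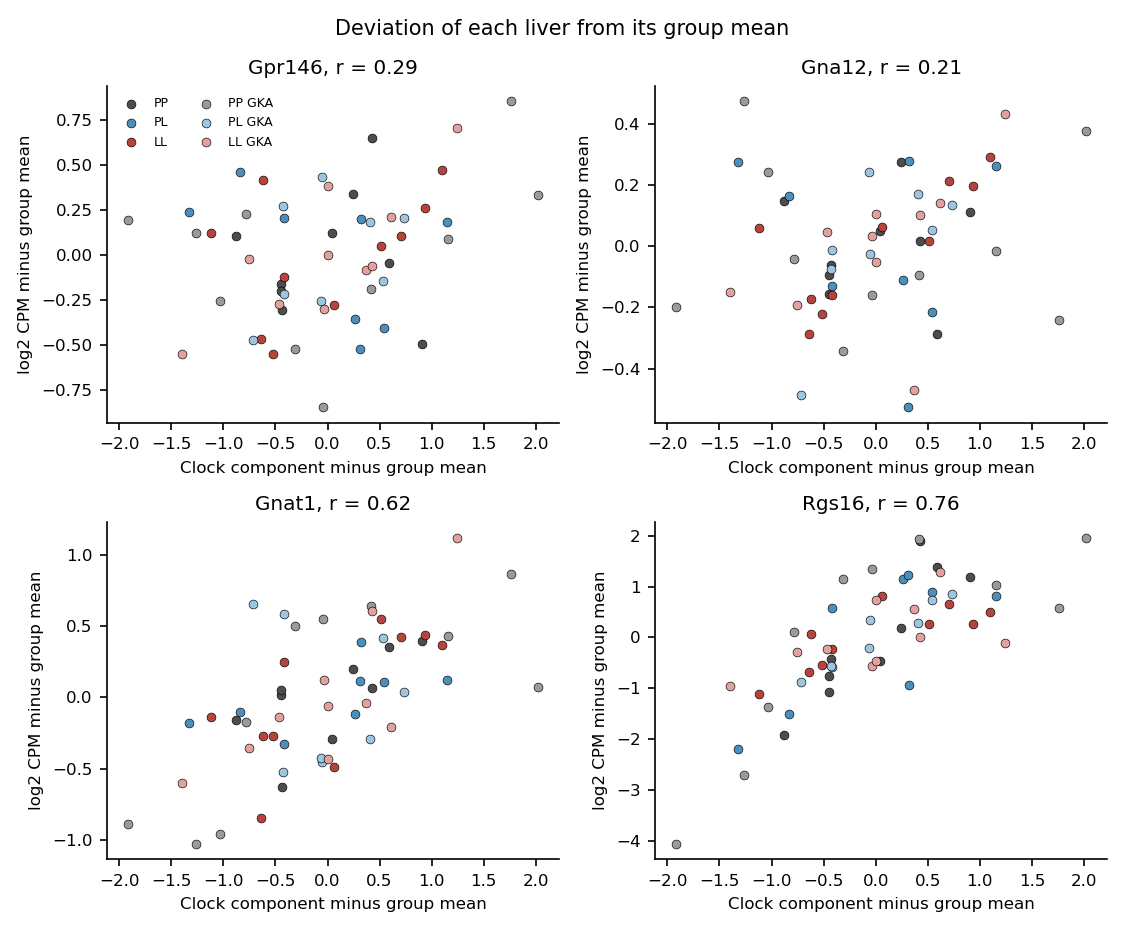
Deviation of log2 CPM from the group mean against the deviation of the clock component from the group mean, for each of the 4 genes, with 1 point per mouse (55 mice) coloured by group. Points for Rgs16 rise from lower left to upper right (r = 0.76), those for Gnat1 less tightly (r = 0.62), and those for Gpr146 (r = 0.29) and Gna12 (r = 0.21) show wide scatter.

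Gnat1 encodes the alpha subunit of rod transducin, which couples the detection of light to phosphodiesterase in the retina. It lies on chromosome 9, 107551673 to 107556911, on the minus strand, and had 28 to 196 reads per liver. Without GKA its lowest, median and highest values were 6.11, 9.99 and 12.7 CPM in PP (n = 9), 13.4, 17.0 and 22.2 CPM in PL (n = 8) and 6.66, 12.8 and 17.9 CPM in LL (n = 10). PL and PP did not overlap in the contrast that chose this gene, where 0.0756% of 10580 genes had groups that did not overlap and 0.151% were called. PP mouse 7, at 13.7 CPM, would have overlapped the lowest PL liver. With GKA the values were 5.04, 12.7 and 19.5 CPM in PP (n = 10), 12.4, 16.5 and 28.5 CPM in PL (n = 8) and 8.94, 12.8 and 30.2 CPM in LL (n = 10). The PL groups had the highest medians under both treatments, and with GKA all 8 PL livers were above the PP mean, with 3 above every PP liver.

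The descriptive log2 fold changes of Gnat1 without GKA were 0.79 (SE 0.13) for PL against PP, 0.37 (SE 0.18) for LL against PP and -0.44 (SE 0.17) for LL against PL. With GKA, PL against PP gave 0.69 (SE 0.26, interval 0.13 to 1.24, edgeR unadjusted p 0.0173, adjusted p 0.454). LL against PP with GKA was 0.33 (SE 0.26, interval -0.21 to 0.86, adjusted p 0.743) and LL against PL -0.36 (SE 0.23, interval -0.84 to 0.12, adjusted p 0.712). The signs were those seen without GKA, but none of the tests passed over all genes. GKA in LL gave 0.22 (SE 0.21, interval -0.22 to 0.65, adjusted p 0.921), of which 0.03 remained without LL GKA mouse 53, and LL against PP with GKA was 0.15 without this mouse. The deviations of Gnat1 had an r of 0.62 with the clock component over the 55 mice, from -0.17 to 0.78 by group. With the component as a covariate, PL against PP with GKA was 0.30, LL against PP with GKA turned to -0.08, and GKA in LL was 0.40 (unadjusted p 0.0143, adjusted p 0.947, edgeR). With an offset for effective length, PL against PP with GKA was 0.38, LL against PP with GKA 0.11 and GKA in LL 0.11. Descriptive values for GKA were 0.25 (SE 0.24) in PP and 0.15 (SE 0.18) in PL. In order of the medians the groups ran from PP through PP GKA, LL, LL GKA and PL GKA to PL, and each group overlapped the next.

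Few of the reads counted for Gnat1 were assigned to its mRNA. The coding transcript Gnat1-201 held 0.257% of the Gnat1 reads over 55 mice and had none in 50 of them. Transcripts annotated with a retained intron held 84.4%, led by Gnat1-205 with 47.4% and Gnat1-203 with 26.1%, and Gnat1-204, with no defined coding sequence, held 13.1%. Of 19 phototransduction genes, 15 had at most 3 reads in every mouse. Sag, the gene of rod arrestin, was among them, with at most 3.

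The intron that Gnat1-205 keeps and the coding transcript removes is shown because its bases set the transcript with the most reads apart from the coding transcript (GRCm39, 20 bases of exon on each side in lower case, the 107 bases of the intron at chr9:107554221-107554327 in capitals, 5′ to 3′ on the minus strand).
Gnat1-205 retained intron: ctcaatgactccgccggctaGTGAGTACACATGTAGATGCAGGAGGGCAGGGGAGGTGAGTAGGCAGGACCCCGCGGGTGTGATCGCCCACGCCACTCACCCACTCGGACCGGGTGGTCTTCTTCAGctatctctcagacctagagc
The intron starts with GT and ends with AG, the usual ends of a spliced intron. With GKA the share of Gnat1-205 among Gnat1 reads was 42.0 ± 9.51% for PP (SD, 10 mice), 50.5 ± 4.88% for PL (8 mice) and 46.2 ± 8.68% for LL (10 mice). PL exceeded PP by 8.44 percentage points (exact permutation p 0.0383, two-sided, adjusted over 6 tests 0.23), which did not pass the correction. By TPM, which divide by length, the shares of Gnat1-205 were lower, at 10.2% for PP, 14.1% for PL and 12.2% for LL. By reads, LL differed from PP by 4.23 points (permutation p 0.31) and from PL by -4.21 points (exact permutation p 0.243).

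**Figure D3:**
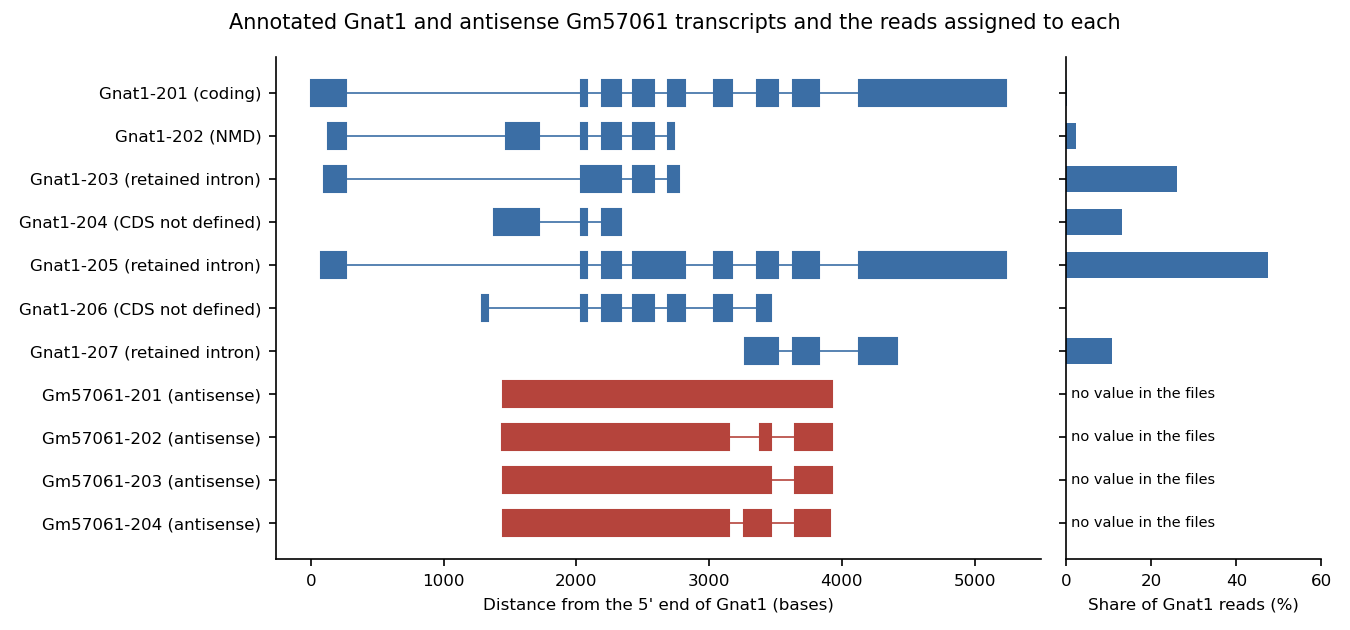
Left, annotated transcripts of Gnat1 (blue) and of the antisense gene Gm57061 (red), exons as boxes, by distance in bases from the 5′ end of Gnat1. Right, share of all Gnat1 reads over 55 mice assigned to each transcript, in percent: Gnat1-205 holds 47.4% and the coding Gnat1-201 holds 0.257%, and the Gm57061 transcripts have no value in the files.

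An antisense gene, Gm57061, runs on the plus strand from 107552988 to 107555468 across Gnat1. It covers 1055 of the 2354 exonic bases of Gnat1-205 and the whole retained intron, and 0 of its 4 transcripts in the newer annotation were in the transcript set of the files. Whether reads were counted by strand is not given in the sources used here, so that reads from Gnat1 and from the antisense gene cannot be told apart. Slc38a3, a glutamine transporter of the liver that starts 4655 bases downstream of Gnat1 on the same strand, had 3174 to 10713 reads. Its deviations from the group means had a Pearson r of 0.70 with those of Gnat1 over the 55 mice. Its part in the Gnat1 values was not tested.

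**Figure D4:**
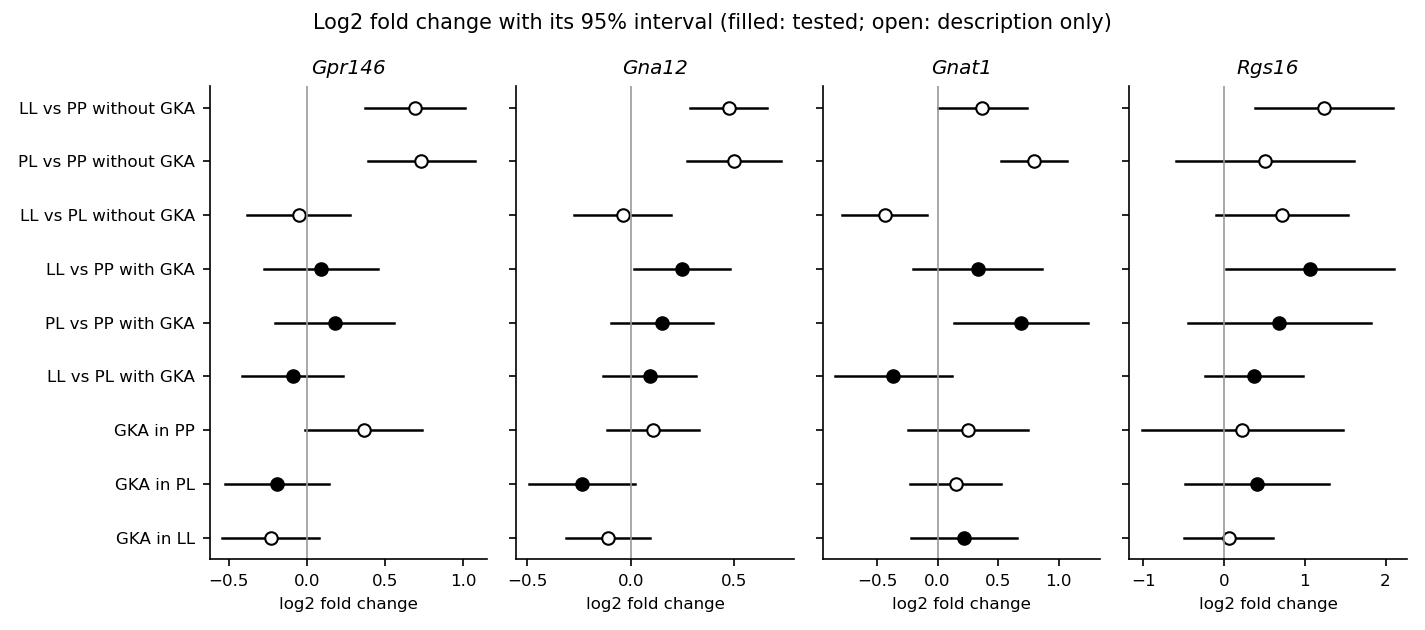
Log2 fold change of the 4 genes in 9 comparisons with 95% intervals as lines. Filled points are tests in mice outside the contrast that chose the gene and open points are descriptions. Of the filled points, 3 have an interval that leaves out 0 (Gna12 and Rgs16 for LL against PP, Gnat1 for PL against PP, all with GKA), and none passed the adjusted threshold.

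Over the 4 genes, edgeR called 0 in each comparison by genotype with GKA. In LL against PP with GKA, 2 of 4 (Gna12 and Rgs16) had an unadjusted p below 0.05, where 0.239% of 10460 genes were called and 10.4% had such a p. In PL against PP with GKA 1 of 4 (Gnat1) had an unadjusted p below 0.05, against 8.19% of all genes, and in LL against PL 0 of 4 against 8.6%, with no gene called in either. DESeq2 gave the same counts. For GKA, 0 of 3 tested in PL and 0 of 1 tested in LL had an unadjusted p below 0.05 with either tool, against 3.18% and 6.15% of all genes with edgeR.

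The 4 genes did not vary as 1 block. Deviations from the group means had a Pearson r of 0.45 between Gna12 and Gpr146 and of 0.47 between Gnat1 and Rgs16 over 55 mice, and the other 4 pairs lay between -0.14 and 0.08. Between Gna12 and Gpr146, r was above 0 in each of the 6 groups, from 0.17 in PP GKA to 0.82 in PL. Between Gna12 and Rgs16 it ran from -0.71 in PL to 0.61 in PL GKA. These points share libraries and depth and carry no test.

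Each gene had a different set of nearest genes when 10587 genes were ranked by r of their deviations over the 55 mice. For Gpr146 the highest were Onecut1, a transcription factor of hepatocytes (r = 0.65), Mcl1, an inhibitor of apoptosis (r = 0.65), and Tgm1 (r = 0.62), and the lowest were Palld, an actin-binding protein (r = -0.71), and Gdap2 (r = -0.60). For Gna12 they were Creb3l3, a liver transcription factor of the endoplasmic reticulum (r = 0.76), Retreg2 (r = 0.67) and Plekha7, of cell junctions (r = 0.66). The lowest given here was Mvd, of the mevalonate pathway (r = -0.69). For Rgs16 they were Slc25a47, a mitochondrial carrier of the liver (r = 0.79), the clock output factor Dbp (r = 0.77) and Bri3 (r = 0.69), and the lowest were Helz2 (r = -0.74) and the sphingosine 1-phosphate receptor S1pr1 (r = -0.73). For Gnat1 they were urate oxidase Uox (r = 0.72) and Atp6v1g1, a subunit of the vacuolar proton pump (r = 0.71), and at the low end Retsat, of retinol metabolism (r = -0.71).

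The wider pathway was described by 179 genes in 8 lists, the 4 genes included, of which 102 passed the filter on low counts in LL against PP. In LL against PP with GKA, edgeR called 0 of 102. DESeq2, run without that filter on the 179 genes, called 1, Grk5. The share of all genes that DESeq2 called is not reported here. An unadjusted p below 0.05 was found in 18 of 102 genes with edgeR (17.6%), 11 higher and 7 lower in LL, against 10.4% of all genes (5.27% higher and 5.11% lower), and the median log2 fold change was 0.01 against 0.00 over all genes. By list, these were 1 of 9 alpha subunits, 0 of 7 beta and gamma subunits, 1 of 5 RGS proteins, 2 of 10 other regulators, 6 of 21 receptors, 1 of 16 effectors of G12/13, 5 of 22 cAMP effectors and 2 of 12 Gq effectors. The smallest p values were those of Grk5, a kinase of activated receptors, Adra1b, the alpha-1B adrenergic receptor, and Rapgef4, a cAMP-activated exchange factor of Rap.

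Grk5 had 1.62, 5.68 and 10.1 CPM (lowest, median and highest) in PP GKA and 1.42, 2.06 and 4.55 CPM in LL GKA, with a log2 fold change of -1.16 (SE 0.31, edgeR adjusted p 0.119, DESeq2 adjusted p 0.0318). With the clock component as a covariate it was -0.44 (adjusted p 0.414). The medians of Adra1b were 26.6 CPM with PP and 19.2 CPM with LL, both on GKA, and its log2 fold change was -0.41 (SE 0.12, adjusted p 0.147). For Rapgef4 they were 32.6 CPM and 63.7 CPM, and the log2 fold change was 0.70 (SE 0.22, adjusted p 0.216), with all 10 LL livers above the PP mean. None of these passed the test with edgeR.

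In LL against PP without GKA, edgeR called 9 of 10537 genes (0.0854%). Of the 98 list genes tested that are not among the 4 genes it called 1, Rgs12, an RGS protein. With DESeq2 and a similar threshold, the study reported many more genes changed in this contrast, Rgs16 and Gpr146 among those higher in LL. The reason for this gap was not tested. An unadjusted p below 0.05 was found in 12 of 98 (12.2%), 8 higher and 4 lower, against 11.8% of all genes (6.15% higher and 5.69% lower), with a median log2 fold change of 0.02 against 0.01. The share was close to that of all genes. Rgs12 rested on 7 to 35 reads per liver. Its lowest, median and highest values were 1.29, 1.43 and 2.74 CPM for PP and 1.74, 3.49 and 3.99 CPM for LL. The log2 fold change was 1.02 (SE 0.18, edgeR adjusted p 0.048), and all 10 LL livers were above the PP mean. The call was lost with other size factors (adjusted p 0.0511), with no filter on low counts (0.0821), with the clock component as a covariate (0.108) and with an offset for effective length (log2 fold change 0.43, adjusted p 0.724). With GKA, the medians of Rgs12 were 1.76 CPM for PP and 2.55 CPM for LL, and the test gave 0.38 on the log2 scale (SE 0.20, adjusted p 0.536).

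In PL against PP without GKA, edgeR called 0 of the 98 list genes other than the 4, and 10 of 98 (10.2%) had an unadjusted p below 0.05, against 10.1% of all genes. DESeq2 called P2ry2. With GKA, over the lists with the 4 genes included, edgeR and DESeq2 called 0, and 6 of 102 (5.88%) had such a p with edgeR, led by the nucleotide receptor P2ry2 (log2 fold change 0.41, SE 0.14, adjusted p 0.355), the angiotensin receptor Agtr1a (0.27, SE 0.09, adjusted p 0.377) and Rgs12 (0.45, SE 0.17, adjusted p 0.452). P2ry2 was also higher in PL and LL without GKA, at medians of 8.36 CPM and 7.79 CPM against 6.40 CPM in PP, without passing the test (edgeR adjusted p 0.0819 and 0.0896). In LL against PL, 3 of 98 genes without GKA (the 4 genes left out) and 4 of 102 with GKA had an unadjusted p below 0.05, against 4.58% and 8.6% of all genes. EdgeR and DESeq2 called 0 of the list genes in either, where edgeR called 0.00942% of all genes without GKA and none with GKA. The smallest p values were those of the thrombin receptor F2r without GKA (log2 fold change -0.32, SE 0.12, adjusted p 0.793) and of Adra1b (-0.29, SE 0.09, adjusted p 0.4), Camk2d, a calcium-dependent kinase (0.46, SE 0.16, adjusted p 0.416), and Rapgef4 (0.54, SE 0.19, adjusted p 0.449) with GKA. Rock2, a kinase that acts on the actin cytoskeleton, had 0.34 (SE 0.15, adjusted p 1.0) without GKA.

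For GKA, an unadjusted p below 0.05 was found with edgeR in 2 of 102 list genes in PP, 2 of 101 in PL and 2 of 101 in LL, against 3.56%, 3.18% and 6.15% of all genes, and edgeR and DESeq2 called 0 in each. In LL the smallest p was that of Rapgef4, at 0.50 (SE 0.12, adjusted p 0.37) and higher in 10 of 10 mice than the mean without GKA, followed by Rgs12 at -0.44 (SE 0.19, adjusted p 0.793) and Gngt2, a gamma subunit, at 0.37 (SE 0.18, adjusted p 0.809). In PL it was that of the phosphodiesterase Pde4b, at 0.57 (SE 0.18, adjusted p 0.999), followed by Gngt2 at 0.61 (SE 0.26, adjusted p 0.999). In PP it was that of the phosphodiesterase Pde8a, at -0.21 (SE 0.09, adjusted p 1.0), followed by the Gq-class alpha subunit Gna11 at 0.17 (SE 0.07, adjusted p 1.0). The glucagon receptor Gcgr, the main Gs-coupled receptor of hepatocytes, had group medians between 162 CPM and 178 CPM.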

How the data were processed

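The authors ran Salmon 1.4.0 on the GENCODE M26 mouse transcripts (GRCm39), without trimming, on RNA with an integrity number above 6, and FastQC for quality. Each deposited file gives an estimated count (expected count) per transcript, not normalised, for 139225 transcripts of 1 mouse. The authors also deposited TPM, which scale by effective length, and the other deposited columns give transcript length and effective length. Whether counting used strand is not given in the sources used here.

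Transcripts were assigned to genes in GENCODE vM39 (GRCm39), where 98.8% matched. Estimated counts were summed per gene and rounded. Pairs of mice within a group differed by at least 12.4 per degree of freedom in chi-square tests, so none were counted as 1 sample. Nothing says how litters were shared, so that p-values measure the spread between these mice.

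Each comparison was a fit of its 2 groups in edgeR 4.0.16 (R 4.3.3), by its quasi-likelihood test, TMM normalisation and filterByExpr, adjusted over all genes by Benjamini-Hochberg. Calls needed an adjusted p under 0.05 with 1.3-fold or more, or 0.7-fold or less. CPM were scaled by TMM over all groups, and log2 CPM had a prior count of 2. For transcript shares, permutation tests were two-sided (SciPy 1.17.1), exact if either group held under 10 mice, and drew 100000 resamples in the rest. Correlations are of log2 CPM after subtracting group means and are descriptions. The members and lists (alpha subunits, beta and gamma subunits, RGS proteins, other regulators, receptors, G12/13 effectors, cAMP effectors, Gq effectors, phototransduction and clock genes) were chosen with earlier results of these data known. The text names, beside the members, list genes called, the 3 list genes with the smallest p in each comparison, the 3 genes with the highest and 2 with the lowest r to each member (passing over genes without an established symbol and genes overlapping the member), the nearest relatives Gna13 and Gnat2, overlapping or neighbouring genes, and Gckr. Some genes that this rule names are not reported here. Gcgr, Gnas, Gnai2 and Sag were added after their values were seen. The count test was tested on simulated data. The alternatives were DESeq2 1.42.0, relative log expression size factors, no filter, all groups in 1 fit, the clock component as a covariate, an effective length offset, PP mouse 7 kept and each mouse left out. For the descriptive contrasts they were added after seeing the data.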

Additional observations from a re-analysis of the deposited data

How the results depend on the processing

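No paired analysis was possible because every mouse number occurs in only 1 group. In the 16 tests of the 4 genes, 106 of 112 values under the alternatives kept their direction and no alternative gave a call. The signs that turned did so with the clock component as a covariate, for Gnat1 in LL against PP with GKA (-0.0767), Rgs16 in PL against PP with GKA (-0.70) and Gpr146 with GKA in LL against PP (-0.0915), PL against PP (-0.018) and LL against PL (0.0701), and with the effective length offset for Gpr146 in LL against PP with GKA (-0.000902). The cause was not tested. Leaving out each mouse in turn gave 292 values over the 16 tests, with no call and 1 sign turned.

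Over the fits that each left out 1 mouse, the log2 fold changes of Gpr146 ran from -0.27 to -0.12 (GKA in PL), from -0.19 to -0.0198 (LL against PL with GKA), from -0.00374 to 0.21 (LL against PP with GKA), from 0.11 to 0.30 (PL against PP with GKA), and those of Gna12 ran from -0.30 to -0.17 (GKA in PL), from 0.0317 to 0.14 (LL against PL with GKA), from 0.20 to 0.31 (LL against PP with GKA), from 0.11 to 0.21 (PL against PP with GKA). Those of Rgs16 ran from 0.25 to 0.57 (GKA in PL), from 0.17 to 0.51 (LL against PL with GKA), from 0.86 to 1.27 (LL against PP with GKA), from 0.54 to 0.90 (PL against PP with GKA), and those of Gnat1 ran from 0.0274 to 0.28 (GKA in LL), from -0.55 to -0.26 (LL against PL with GKA), from 0.15 to 0.44 (LL against PP with GKA), from 0.59 to 0.80 (PL against PP with GKA). Without LL GKA mouse 53 Gpr146 in LL against PP with GKA turned to -0.00374.

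The list genes were counted here with the 4 genes included. Any call of the 4 genes in LL or PL against PP without GKA follows from their choice or uses its mice, and is no result. In LL against PP without GKA 2 list genes were called with edgeR, where 0.0854% of all genes were. The count was 5 with DESeq2 and 4 with all groups in 1 fit. It was 0 with relative log expression size factors, no filter, the clock component or the effective length offset. In PL against PP without GKA 1 was called with edgeR, where 0.151% of all genes were. The count was 4 with DESeq2 (among them P2ry2, which is not 1 of the 4 genes), 3 with PP mouse 7 kept and 0 with the effective length offset. Shares of all genes called under these other settings are not reported here. In LL against PP with GKA 0 were called with edgeR and 1 with DESeq2. In the other 6 comparisons the counts stayed at 0. The effective length offset turned Gna11 for GKA in PP to -1.06 and Camk2d in LL against PL with GKA to -0.0924. Of 140 descriptive values of the 4 genes under the alternatives, 139 moved by less than 1 SD between mice and 4 turned sign. With the clock component Rgs16 in PL against PP without GKA moved to -1.15 and Gnat1 in LL against PP without GKA to -0.064, and with the effective length offset Gnat1 for GKA in PL moved to -0.26 and Gna12 in LL against PL without GKA to 0.0839. Shares of TPM kept the direction and side of the test in 6 of 6 comparisons. Depth limits Rgs12 (7 to 35 reads), Grk5 (4 to 58 reads) and, of the 4 genes, Gnat1 (28 to 196 reads).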
